A study of Mus musculus with 2 samples.

Results

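Genes of the neuronal cytoskeleton, namely Tubb3, Tubb2b, Stmn1, Stmn2, Stmn3, Map1b, Nefm and Nefl, were followed through the endocrine lineage of the embryonic mouse pancreas. They were picked by symbol, and all 8 of 8 were found among the 27998 genes of the count matrices. The tissue was the dissociated pancreas of 1 knockout-titled and 1 control C57BL/6 embryo of embryonic day 13.5. Live single cells that excluded the dye 7-AAD were sorted and profiled by droplet sequencing of transcript 3' ends, in which every molecule carries a unique molecular identifier (UMI). The series' design text calls the mutant Dpy30∆P, and Dpy30 is a core subunit of the COMPASS histone methyltransferases. Neither the driver of the deletion nor the deleted part of the gene is stated in the labels, and each group is 1 embryo.

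Epithelial cells were placed in states by raw marker UMIs, with none of the 8 genes used. Cells with at least 3 Chga UMIs formed the Chga-positive state (20 knockout-labelled and 84 control cells). The remaining cells with at least 5 Neurog3 UMIs are called Neurog3-high (51 and 124 cells), and those with 1 to 4 are called Neurog3-low (49 and 97 cells). Cells with neither, in which trunk markers such as Sox9 and Spp1 outnumbered tip markers, formed the trunk (142 and 239 cells). Neural cells (68 and 45 cells, split into 53 and 31 neuron-like and 15 and 14 glia-like cells) and mesenchyme (1932 and 2447 cells) of the same libraries were used for comparison. The states fitted their labels: Chgb, which was not used to set them, stood at 13697 CPM (UMIs per 1000000 UMIs of the state) in knockout-labelled and 14952 CPM in control Chga-positive cells, and Insm1, a zinc-finger factor of endocrine progenitors that set no gate, at 186 and 170 CPM in Neurog3-high cells against 0 and 4.02 CPM in the trunk.

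The microtubule is built from tubulins, of which Tubb3 is the beta-tubulin used as a marker of neurons and Tubb2b a beta-tubulin of the developing brain. Map1b is a microtubule-associated protein of growing axons, the stathmins bind free tubulin and promote microtubule disassembly (Stmn1 in dividing cells generally, Stmn2 and Stmn3 mainly in neurons), and Nefm and Nefl are the medium and light neurofilament subunits, intermediate filaments of axons. Endocrine cells of the pancreas arise from trunk cells through a short-lived progenitor that makes Neurog3, a basic helix-loop-helix factor that binds E-boxes, and they share parts of the neuronal gene programme, many genes of which are repressed outside neurons by Rest through RE1 elements.

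Because E-box and RE1 factors are the regulators named for this programme, the 250 bases before the start site are printed for the members found in the RefSeq table (build GRCm38.p6). The table held 3 of the 8, Tubb3, Stmn3 and Map1b, while Tubb2b, Stmn1, Stmn2, Nefm and Nefl are named only. Each is written 5′ to 3′ on the gene's own strand, and capitals mark a CANNTG (E-box) or, in Tubb3, the complement GGTGCTG of CAGCACC, part of RE1. The windows are chr8:123411303-123411552 (plus strand) for Tubb3, chr2:181314501-181314750 (minus strand) for Stmn3 and chr13:99516603-99516852 (minus strand) for Map1b, whose RefSeq start is not a GENCODE transcript start.
Tubb3: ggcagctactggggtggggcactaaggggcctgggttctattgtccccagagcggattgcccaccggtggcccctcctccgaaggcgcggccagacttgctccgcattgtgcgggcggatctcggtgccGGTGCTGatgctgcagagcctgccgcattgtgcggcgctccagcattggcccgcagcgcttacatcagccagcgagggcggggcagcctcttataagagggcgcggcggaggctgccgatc
Stmn3: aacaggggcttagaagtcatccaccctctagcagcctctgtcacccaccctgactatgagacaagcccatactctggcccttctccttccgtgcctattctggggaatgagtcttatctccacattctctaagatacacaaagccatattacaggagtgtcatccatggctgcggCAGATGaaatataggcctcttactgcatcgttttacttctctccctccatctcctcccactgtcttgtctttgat
Map1b: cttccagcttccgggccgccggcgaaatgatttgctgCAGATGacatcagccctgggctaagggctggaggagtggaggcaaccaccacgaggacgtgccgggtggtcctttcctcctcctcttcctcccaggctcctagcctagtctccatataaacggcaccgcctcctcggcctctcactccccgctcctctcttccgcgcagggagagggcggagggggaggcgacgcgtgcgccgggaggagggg
Both strands were searched. The Tubb3 window held no CANNTG and 1 CAGCACC on the reverse strand. Stmn3 and Map1b each held 1 CANNTG, which read CAGATG in both, at 75 and 213 bases before the start. The other part of RE1 searched, GGACAGC, was in none of the 3. Among 32841 windows of the same length, 66.2% held CANNTG, 14.4% CAGATG, 5.73% CAGCACC and 5.29% GGACAGC. Every CAGATG is also a CANNTG and was counted under both. A match is only a run of letters, and no binding was measured.

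The libraries held 28033433 (knockout-labelled) and 32702089 (control) UMIs, with a median of 8049 and 6825.5 per barcode. After filtering, 2938 and 3749 cells were kept, of which 287 and 281 fell in no gate. Median depth was 13819 and 12483 UMIs in trunk cells, 11912 and 12586 in Neurog3-low, 9698 and 8694 in Neurog3-high and 7822.5 and 7623.5 in Chga-positive cells, so shares of cells with a UMI are also given after thinning each cell to 3000 UMIs. Dpy30 was at 156 and 146 CPM over the whole libraries and so does not separate the labels, although a 3' tag outside the deleted part would check nothing. Xist gave 58508 knockout-labelled and 2 control UMIs, and Ddx3y gave 0 and 1847, so condition and sex of the embryo cannot be told apart. The libraries shared 22 barcodes, 0 of them epithelial.

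With 1 library per group there was no replicate and no test. Levels are UMIs summed over the cells of a state, as CPM with an exact 95% Poisson interval, and folds carry an exact 95% interval, and these intervals cover counting error only. A fold was called when the pair had at least 20 UMIs, its interval left out 1, and it reached 2-fold between states or 1.5-fold between libraries. In summed UMIs, more cells with a transcript and more transcript per cell cannot be told apart, so both quantities are given where it matters. Levels are compared within a gene, never between genes.

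In both libraries Tubb3, Map1b and Nefm were near 0 in trunk cells and abundant in Neurog3-high cells, whereas Stmn1 and Tubb2b were already present in the trunk and stayed within 2-fold, and Stmn2 and Stmn3 were close to 0 throughout the endocrine lineage. Between Neurog3-high and trunk cells, 5 of the 8 genes had the 20 UMIs needed in each library, and 3 of them (Tubb3, Map1b, Nefm) were called higher and 0 lower. Of all genes compared, 7.48% were called higher and 6.87% lower in the knockout-labelled library, and 9.99% and 8.1% in the control library. Tubb3 and Nefm, and in the knockout-labelled library Map1b, met that minimum only through the Neurog3-high cells, so the count of 3 describes them and supports nothing further.

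**Figure D1:**
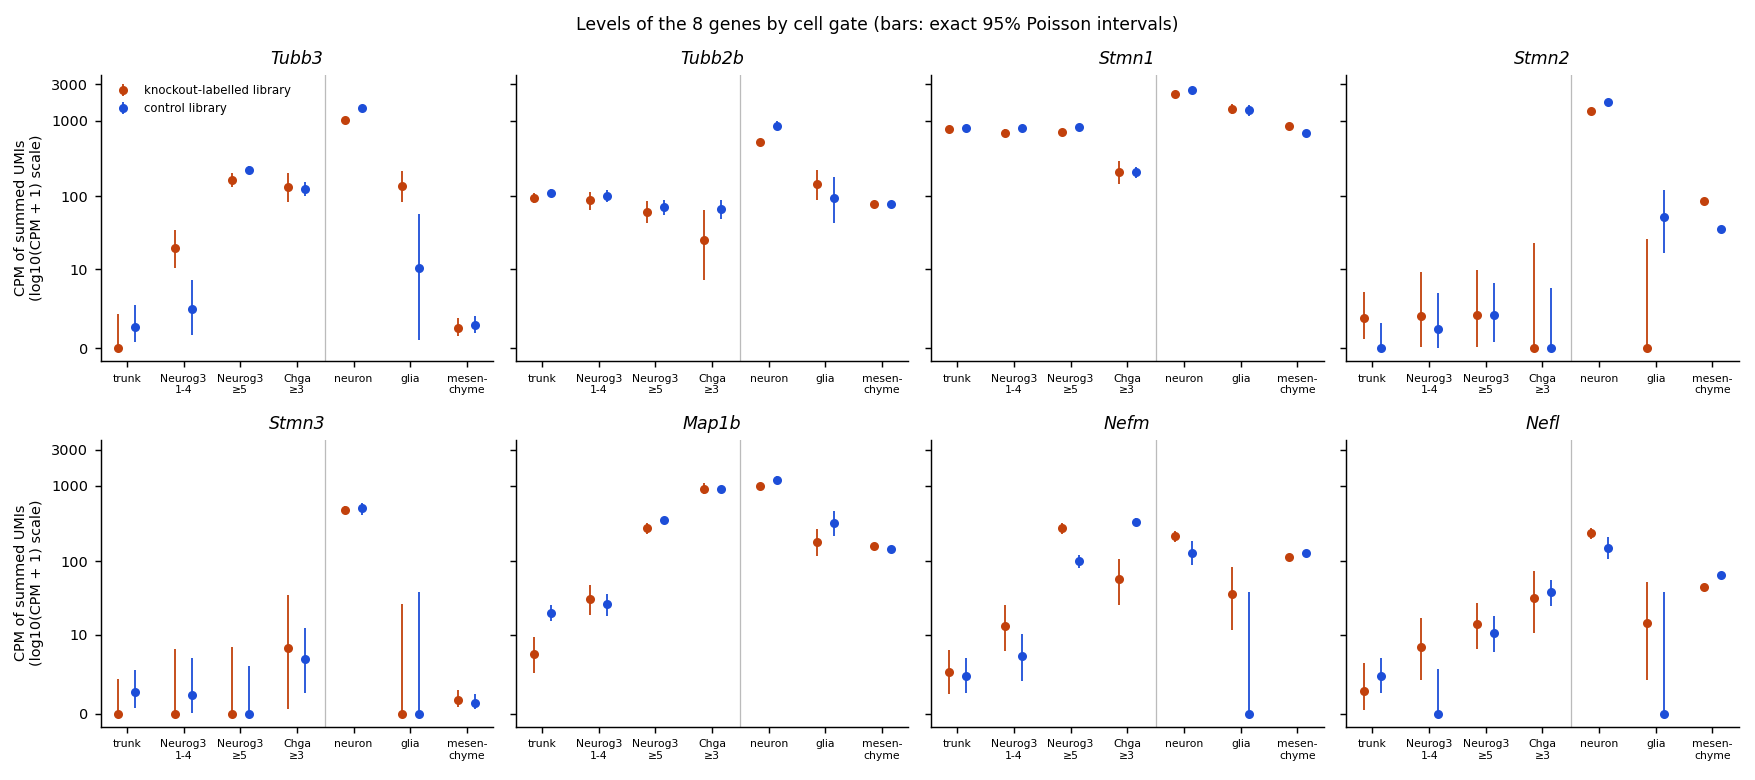
Summed UMIs as CPM (log10(CPM + 1) scale) of the 8 genes in 4 epithelial states, left of the grey line, and in neuron-like, glia-like and mesenchymal cells, right of it, for the knockout-labelled (orange) and control (blue) library. Bars are exact 95% Poisson intervals. Tubb3, Map1b and Nefm are higher in Neurog3-high cells (165, 274 and 276 CPM in the knockout-labelled library) than in the trunk. In that library 1 Neurog3-high cell holds 74 Nefm UMIs. Nefm in Chga-positive cells is at 57.5 CPM in the knockout-labelled and 334 CPM in the control library. Stmn1 drops in Chga-positive cells (211 CPM in the knockout-labelled library). Stmn2 and Stmn3 are highest in neuron-like cells, with Stmn2 also at 85.5 and 36.2 CPM in mesenchyme.

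Tubb3 was near 0 in the trunk of both libraries. Its UMIs in the knockout-labelled library numbered 0 in 142 trunk cells, 12 in 49 Neurog3-low cells, 93 in 51 Neurog3-high cells and 21 in 20 Chga-positive cells, which is 0, 19.9, 165 (133 to 202) and 134 (83.1 to 205) CPM. In the control library there were 3 UMIs in 239 trunk cells, 3 in 97 Neurog3-low cells, 258 in 124 Neurog3-high cells and 87 in 84 Chga-positive cells, or 0.927, 2.33, 225 (199 to 254) and 125 (100 to 154) CPM. The Neurog3-high state thus held the highest epithelial level in both libraries, and the Chga-positive level lay below it with overlapping intervals in the knockout-labelled library only. Relative to the trunk, the Neurog3-high level was at least 109-fold higher in the knockout-labelled library, computed against a floor of 3 UMIs in the trunk, and 243-fold (82.2 to 1190) higher in the control library. A Tubb3 UMI was found in 51.0% of knockout-labelled and 58.1% of control Neurog3-high cells (31.4% and 44.4% after thinning). The same share was 1.14% and 0.617% in the deeper tip cells, at a median of 17587 and 18610 UMIs, and 0 of 33 and 0 of 28 endothelial cells had one, which allows shares of up to 9.09% and 10.7%.

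Tubb2b showed the opposite order, being highest among epithelial states in the trunk. It stood at 61.9 (43.1 to 86.1) CPM in knockout-labelled and 70.7 (56.1 to 87.9) CPM in control Neurog3-high cells, against 94.9 (81.8 to 110) and 112 (100.6 to 124) CPM in trunk cells. The folds of 0.652 (0.441 to 0.94) and 0.632 (0.491 to 0.806) leave out 1 but do not reach 2-fold and were not called. In tip cells Tubb2b was only 12.1 and 11.6 CPM, a fold over trunk of 0.128 and 0.104, called lower in both libraries. Of 3 members that could be compared there, 1 and 2 were lower, Map1b being the other in the control library, and of all genes 6.86% and 8.63%. That Map1b call leans on a few control trunk cells with 1 or 2 Chga UMIs. The 227 control trunk cells without Chga held only 11 Map1b UMIs. Tubb2b therefore separated trunk from tip among epithelial cells without a Neurog3 UMI.

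Map1b was highest at the end of the series, in Chga-positive cells. In the knockout-labelled library it was at 5.05 (2.42 to 9.29) CPM in the trunk, 31.5 (18.9 to 49.1) in Neurog3-low, 274 (233 to 321) in Neurog3-high and 920.4 (776 to 1084) in Chga-positive cells. The control library gave 20.1 (15.5 to 25.6), 26.4 (18.3 to 36.9), 353 (319 to 389) and 924 (854 to 998) CPM in the same order. Neurog3-high cells exceeded the trunk 54.3-fold (28.8 to 116) and 17.6-fold (13.5 to 23.2), and Chga-positive cells exceeded Neurog3-high cells 3.36-fold (2.66 to 4.24) and 2.62-fold (2.31 to 2.97), all called. With Chga-positive cells set at 1 UMI, which takes out the trunk cells with a trace of Chga, the Neurog3-high level was 61.7-fold and 84.2-fold that of the trunk for Map1b, and in the control library 547-fold for Tubb3 (1 trunk UMI) and 148-fold for Nefm (2 trunk UMIs). Every Chga-positive cell had a Map1b UMI, 20 of 20 knockout-labelled and 84 of 84 control cells (90% and 94.0% after thinning), against 0 of 22 and 3 of 81 immune cells, whose median depth was 10497 and 8739 UMIs. Other classes outside the epithelium had more Map1b. It was at 212 and 184 CPM in endothelial cells, 182 and 324 CPM in glia-like cells and 161 and 146 CPM in mesenchyme. In Chga-positive cells the level reached that of neuron-like cells (988 and 1207 CPM) to within a fold of 0.931 (0.771 to 1.12) and 0.765 (0.666 to 0.881), neither of them called.

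Nefm, the medium neurofilament subunit, was carried by few cells. In Neurog3-high cells it gave 156 UMIs in 14 of 51 knockout-labelled cells and 115 UMIs in 22 of 124 control cells, or 276 (234 to 323) and 100 (82.9 to 120) CPM, against 5 and 7 UMIs in the whole trunk. Trunk levels were 2.52 and 2.16 CPM, and the folds over trunk were 109 (45.9 to 341) and 46.4 (21.8 to 118). One knockout-labelled Neurog3-high cell held 74 of the 156 UMIs, and the next held 16, 12 and 10. Chga-positive cells gave 9 UMIs in 4 of 20 knockout-labelled cells and 233 UMIs in 30 of 84 control cells, 57.5 (26.3 to 109) and 334 (293 to 380) CPM. The step to the Chga-positive state thus ran in opposite directions, 0.208-fold (0.0935 to 0.406) in the knockout-labelled and 3.33-fold (2.65 to 4.20) in the control library. That difference between libraries was not tested.

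Nefl, the light subunit and binding partner of Nefm in neurofilaments, was much sparser. It gave 8 UMIs in 6 knockout-labelled and 12 UMIs in 11 control Neurog3-high cells, 14.2 and 10.5 CPM, and stayed under the 20 UMIs needed against the trunk. In Chga-positive cells there were 5 UMIs, all in 1 knockout-labelled cell, and 27 UMIs in 9 control cells, 1 of which held 13. In the control library, the Chga-positive level was 3.70-fold (1.81 to 8.01) the Neurog3-high level, which was called. Nefl was found mostly where Nefm was: in 5 of 14 knockout-labelled and 7 of 22 control Neurog3-high cells with a Nefm UMI, against 1 of 37 and 4 of 102 without. The annotation places the Nefm transcripts (chr14, 68082590 to 68124846, minus strand) across Nefl (68083863 to 68089095, plus strand), and the sources used here do not state whether counting used strand.

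Stmn1, the stathmin of dividing cells, was abundant in the trunk and fell at the Chga-positive state in both libraries. It stood at 778 (740 to 818) and 806 (775 to 838) CPM in knockout-labelled and control trunk cells, 695 and 810 CPM in Neurog3-low cells and 702 (635 to 775) and 823 (771 to 877) CPM in Neurog3-high cells. The Neurog3-high levels were 0.903-fold (0.806 to 1.01) and 1.02-fold (0.947 to 1.10) those of the trunk, not called. In Chga-positive cells the level fell to 211 (145 to 296) and 207 (174 to 243) CPM, a fold of 0.30 (0.204 to 0.429) and 0.251 (0.209 to 0.299) against Neurog3-high cells. Both libraries therefore lost most of their Stmn1 at the same state in which Map1b was highest.

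The neuronal stathmins were nearly missing from the lineage. Stmn2 gave 3 and 0 UMIs in the trunk, 1 and 1 in Neurog3-low, 1 and 2 in Neurog3-high and 0 and 0 in Chga-positive cells. Stmn3 gave 0 and 3, 0 and 1, 0 and 0, and 1 and 3 UMIs in the same states. In neuron-like cells of the same libraries Stmn2 was at 1323 and 1764 CPM and Stmn3 at 483 and 503 CPM. Relative to these, Stmn2 in Neurog3-high cells was at a fold of 0.00134 and 0.00099, and Stmn3, at 0 UMIs there, was lower by a fold of at most 0.011 and 0.0052 against a floor of 3 UMIs. Their relative Stmn4, also mainly neuronal, had 0 UMIs in Neurog3-low, Neurog3-high and Chga-positive cells of both libraries, against 89.6 and 58.8 CPM in neural cells.

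From Neurog3-high to Chga-positive cells, 5 members had 20 UMIs in the knockout-labelled and 6 in the control library. Called were 1 higher (Map1b) and 2 lower (Stmn1, Nefm) in the knockout-labelled library, and 3 higher (Map1b, Nefm, Nefl) and 1 lower (Stmn1) in the control library. Of all genes, 8.91% were called higher and 7.1% lower in the knockout-labelled library, and 12.9% and 9.52% in the control library. Tubb3 was 0.816-fold in the knockout-labelled and 0.554-fold (0.43 to 0.709) in the control library, and Tubb2b 0.413-fold and 0.954-fold, none of them called. The members therefore did not move as 1 block at this step.

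Within the Neurog3 gates, Tubb3 was highest in the cells with the most Neurog3 UMIs, but the lower bins were not in order. Cells with at least 20 Neurog3 UMIs had 218 (171 to 273) CPM of Tubb3 in the knockout-labelled and 325 (283 to 371) CPM in the control library, with a Tubb3 UMI in 21 of 31 and 60 of 79 cells. At 10 to 19 Neurog3 UMIs the level was 167 (100 to 261) and 62.6 (37.7 to 97.7) CPM. At 5 to 9 there were 0 Tubb3 UMIs in 8 knockout-labelled cells and 119 (72.6 to 184) CPM in 17 control cells. At a single Neurog3 UMI it was 8.60 and 2.16 CPM. The order of the 5 to 9 and 10 to 19 bins was not the same in both libraries, and these bins hold 8 to 28 cells below 20 UMIs. Map1b reached 324 (266 to 390) and 463 (413 to 518) CPM at 20 or more Neurog3 UMIs, against 5.73 and 25.9 CPM at 1.

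**Figure D2:**
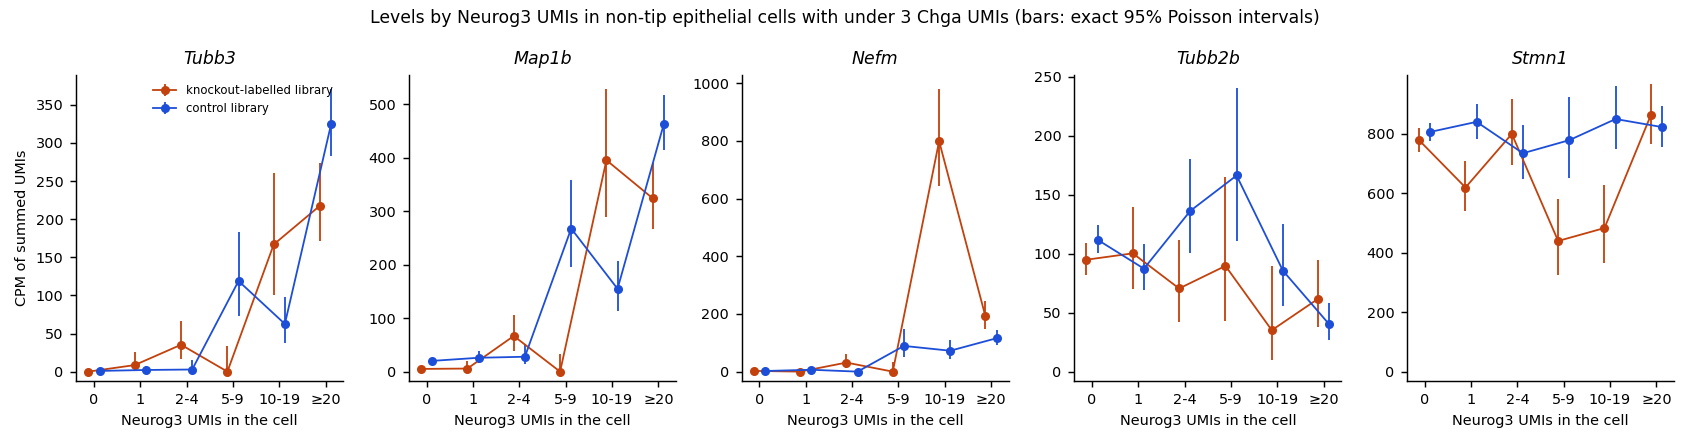
Summed UMIs as CPM (linear axis) of 5 of the genes in epithelial cells outside the tip with under 3 Chga UMIs, by the number of Neurog3 UMIs in the cell, for the knockout-labelled (orange) and control (blue) library, with exact 95% Poisson intervals. Tubb3 and Map1b are near 0 up to 1 Neurog3 UMI and reach 218 and 324 CPM (knockout-labelled) at 20 or more, and Stmn1 shows no such onset. The Nefm peak of 799 CPM at 10 to 19 Neurog3 UMIs holds the cell with 74 Nefm UMIs.

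Among single Neurog3-high cells, Tubb3 and Map1b were found in largely the same cells. Map1b was detected in 23 of 26 knockout-labelled and 66 of 72 control cells with a Tubb3 UMI (88.5% and 91.7%), but in 7 of 25 and 13 of 52 cells without one (28% and 25%). After thinning to 3000 UMIs the shares were 68.8% and 89.1% with Tubb3, and 25.7% and 23.2% without it. Cells with Tubb3 were not deeper: their median was 9412 and 8473.5 UMIs, against 10241 and 9175.5 without. Nefm was at 468 and 176 CPM in cells with Tubb3, and at 87.6 and 14.9 CPM in those without. The knockout-labelled value of 468 CPM includes 1 cell with 74 Nefm UMIs, which had 7 Tubb3 UMIs. Stmn1 did not follow this split in the control library, at 834 CPM with Tubb3 and 811 CPM without, and was at 808 and 599 CPM in the knockout-labelled library.

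The cells with Tubb3 also differed in lineage genes that set neither group. Neurod1, a downstream helix-loop-helix factor of endocrine differentiation, was at 290 and 214 CPM with Tubb3 and at 24.5 and 22.3 CPM without. Pax4, a factor of beta-cell and delta-cell fate, was at 268 and 293 CPM with Tubb3 against 28 and 81.9 CPM without. Trunk genes ran the other way. Spp1, a secreted trunk marker, was at 286 and 829 CPM with Tubb3 and at 3262 and 4048 CPM without, and the Notch target Hes1 was at 32.2 and 77.3 CPM with Tubb3 and at 308 and 577 CPM without. Neurog3 itself was higher in the cells with Tubb3, at 3503 and 4813 CPM against 1713 and 1926 CPM. These splits describe cells of 1 library each and carry no test.

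**Figure D3:**
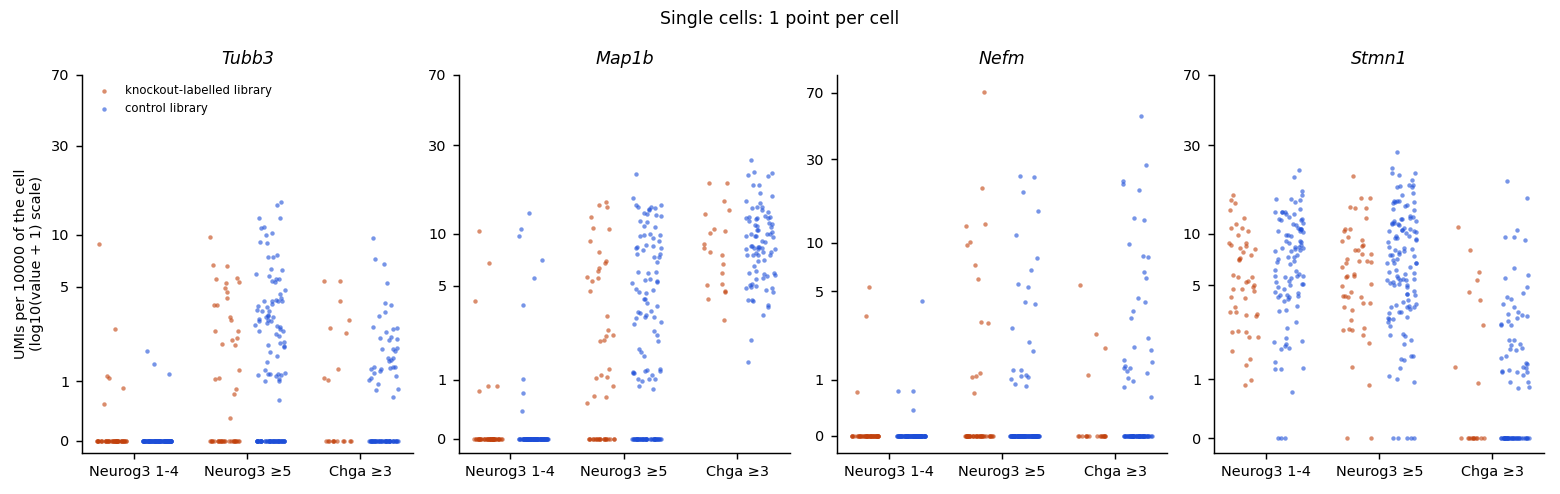
UMIs of Tubb3, Map1b, Nefm and Stmn1 per 10000 UMIs of the cell (log10(value + 1) scale), 1 point per cell, in Neurog3-low, Neurog3-high and Chga-positive cells of the knockout-labelled (orange) and control (blue) library, with sideways scatter added. Most cells have no Nefm and a few have much, all 20 and 84 Chga-positive cells have Map1b, and most of the Stmn1 values in Chga-positive cells are low or 0.

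The cell cycle ran with the levels of several members. Cells were split at 10 UMIs of 24 genes of the G2 and M phases per 10000 UMIs. In Neurog3-high cells Stmn1 was at 900.2 (728 to 1100.4) and 1216 (1089.8 to 1352) CPM above that value, and at 657 (585 to 735) and 696 (642 to 754) CPM below it. In mesenchyme the gap was wider, 1566 and 1537 CPM above against 540 and 383 CPM below. Tubb2b in Neurog3-high cells was at 152 (86.7 to 246) and 154 (111 to 207) CPM above and at 41.3 (24.9 to 64.6) and 43.9 (31.1 to 60.2) CPM below. Map1b ran the other way, at 9.48 and 50.1 CPM above (1 and 14 UMIs) and at 335 (284 to 392) and 450 (407 to 497) CPM below, as did Tubb3, at 9.48 and 46.5 CPM above and at 200 and 283 CPM below. Only 7 knockout-labelled and 23 control Neurog3-high cells lay above the value, and no Chga-positive cell did.

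**Figure D4:**
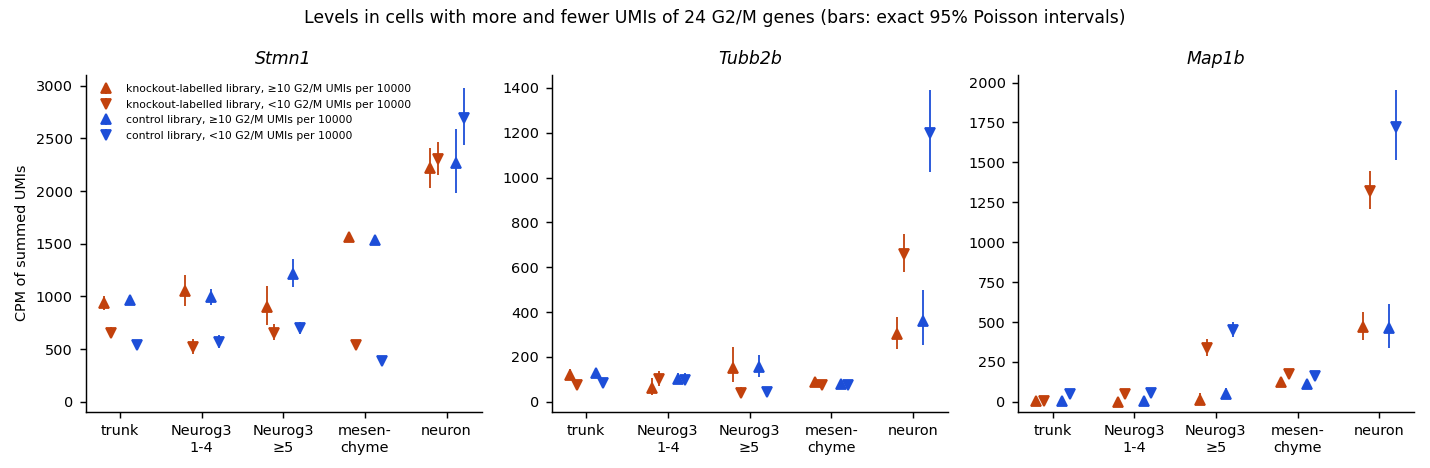
Summed UMIs as CPM of Stmn1, Tubb2b and Map1b in cells with at least 10 (upward triangles) and under 10 (downward triangles) UMIs of 24 G2/M genes per 10000, by gate, in the knockout-labelled (orange) and control (blue) library, with exact 95% Poisson intervals. Stmn1 is higher in G2/M-rich mesenchyme (1566 and 1537 CPM), and Map1b in Neurog3-high cells is found almost only in cells poor in G2/M UMIs (335 and 450 CPM).

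Against neuron-like cells of the same libraries, 7 of 8 members were called lower in Neurog3-high cells in each library, where 10.9% and 8.27% of all genes were called lower. Stmn2, Stmn3 and Nefl met the minimum of 20 UMIs only through the neuron-like cells. The count of 7 therefore describes the members and supports nothing further. Tubb3 reached 0.161-fold and 0.154-fold of the neuron-like level, Map1b 0.278-fold and 0.292-fold, Stmn1 0.309-fold and 0.327-fold, Tubb2b 0.119-fold and 0.0827-fold, and Nefl 0.06-fold and 0.0692-fold. Nefm was the exception at 1.29-fold (1.01 to 1.63) and 0.767-fold (0.514 to 1.17), not called. The fold of 1.29 leans on 1 knockout-labelled Neurog3-high cell, which held 74 Nefm UMIs, while the next held 16. In Chga-positive cells Nefm was at 0.268-fold (0.12 to 0.524) of the neuron-like level in the knockout-labelled library and at 2.55-fold (1.76 to 3.82) in the control library. Neural RNA in the epithelial states was low by its own markers. Cells with at least 2 glial markers, such as Sox10 and Foxd3, had been left out of these states. Of 3 neural markers that endocrine cells do not share (Sox10, Foxd3, Phox2a), 0 and 1 had a UMI in Neurog3-high cells and 0 and 1 in Chga-positive cells, the 1 being Sox10. Sox10 ranged from 0 to 3.31 CPM over the 4 knockout-labelled states and from 1.43 to 5.24 CPM over the control states, against 54.8 and 88.2 CPM in neural cells. Foxd3 had 0 UMIs in all 4 states of both libraries, and Phox2a had 1, in the knockout-labelled trunk.

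Outside the lineage some members had wide expression. Nefm was found in 43.2% and 43.8% of mesenchymal cells (114 and 130 CPM), Nefl in 21.8% and 25.2% (45.5 and 66.5 CPM), and Map1b in 55.0% and 48.2% (161 and 146 CPM), whereas Tubb3 was at 0.859 and 1.05 CPM there. The 9 mesenchymal markers summed to 24.8 and 33.2 CPM in Neurog3-high cells and 32.0 and 50.2 CPM in Chga-positive cells, against 2064 and 2646 CPM in mesenchyme. The gates set this gap, since epithelial cells had at most 5 UMIs of these markers and mesenchymal cells more than 5. It therefore does not show how much mesenchymal RNA the epithelial states held. In the knockout-labelled cell with 74 Nefm UMIs, Col3a1, Sox10 and Gap43 were all at 0, while Neurog3 had 14 UMIs, Map1b 15, Tubb3 7, Neurod1 4 and Epcam 3.

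Between the knockout-labelled and the control library, few members were called within a state. In the trunk 3 members could be compared and 1, Map1b, was lower at 0.251-fold (0.115 to 0.492), where 6.56% of all genes were called. This call rests on a few control cells. Of the control library's 65 Map1b UMIs in the trunk, 54 lay in 12 cells with 1 or 2 Chga UMIs, against 2 of 10 UMIs in 1 such cell of the knockout-labelled library. Trunk cells without Chga held 8 Map1b UMIs in 141 knockout-labelled and 11 in 227 control cells. In Neurog3-low cells 0 of 3 members compared were called, against 8.69% of genes, with Map1b at 1.19-fold, Tubb2b at 0.869-fold and Stmn1 at 0.858-fold. Tubb3, at 12 UMIs against 3, was under the minimum, and 6 of the 12 were in 1 cell.

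In Neurog3-high cells 6 members were compared and 1 was called, Nefm at 2.75-fold (2.15 to 3.53) higher in the knockout-labelled library, where 6.41% of genes were called. Without the cell with the most Nefm UMIs in each library the fold was 1.75, and with a stricter epithelial gate it was 1.47 and not called. The other folds lay on the lower side or spanned 1: Tubb3 at 0.731 (0.57 to 0.93), Map1b at 0.778 (0.642 to 0.938) and Stmn1 at 0.853 (0.757 to 0.961) had intervals that left out 1 without reaching 1.5-fold, Tubb2b was at 0.876 and Nefl at 1.35. In Chga-positive cells Nefm was the 1 member called of 6, lower in the knockout-labelled library at 0.172-fold (0.0777 to 0.332), where 5.58% of genes were called. Map1b was at 0.996-fold (0.826 to 1.20), Stmn1 at 1.02-fold, Tubb3 at 1.08-fold (0.634 to 1.75) and Nefl at 0.825-fold. Tubb2b, at 4 UMIs in 20 cells against 47 in 84, was at 0.379-fold (0.0992 to 1.04), not called.

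**Figure D5:**
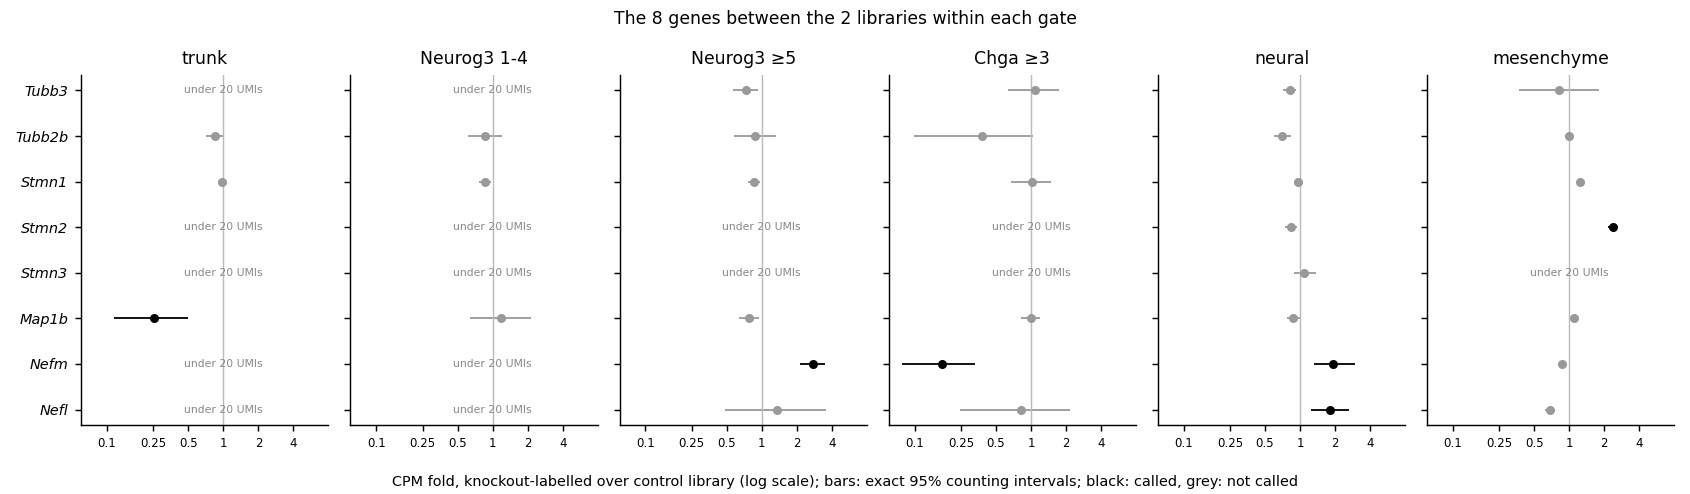
CPM fold (log axis) of each gene in the knockout-labelled over the control library within 6 gates, with exact 95% counting intervals. Black points were called (at least 1.5-fold with an interval that leaves out 1), grey points were not, and genes under 20 UMIs have no point. Nefm is called higher in Neurog3-high cells (2.75-fold) and in neural cells (1.93-fold) and lower in Chga-positive cells (0.172-fold), and most other points lie near 1.

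The neurofilament subunits also differed in neural cells, where all 8 members could be compared and 2 were called, against 6.02% of genes: Nefm at 1.93-fold (1.31 to 2.94) and Nefl at 1.79-fold (1.24 to 2.65). Neuron-like cells made up 53 of 68 knockout-labelled and 31 of 45 control neural cells. In neuron-like cells alone these folds were 1.64 and 1.56, and Tubb2b was called lower at 0.607-fold, so that 3 of 8 were called against 6% of genes. In mesenchyme 7 members were compared and Stmn2 alone was called, at 85.5 (80.9 to 90.3) CPM in the knockout-labelled and 36.2 (33.3 to 39.2) CPM in the control library, 2.36-fold (2.14 to 2.61), where 6.37% of genes were called. Those UMIs lay in 9.78% and 4.90% of mesenchymal cells. In the mesenchymal cells with a UMI of each of Igf1, Nrk and Nrxn3 (92 and 83 cells), genes taken up after their values were seen, Stmn2 was at 533 and 123 CPM, against 63.8 and 32.8 CPM in the rest. Nefl in mesenchyme was at 0.684-fold (0.621 to 0.754), just inside the limit and not called.

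The wider cytoskeletal and neuronal lists also held genes that were higher in Neurog3-high than in trunk cells and genes that were not. Of all genes, 7.48% and 9.99% were called higher and 6.87% and 8.1% lower at this step. A gene near 0 in the trunk could be compared only if it was high in Neurog3-high cells, so the counts and medians of these lists lean upward and are a description. Of 7 pan-neuronal and vesicle genes tested in the knockout-labelled and 12 in the control library, 5 and 6 were called higher than in the trunk and 0 lower, with a median log2 fold of 3.76 and 1.36, where all genes had a median of -0.02 and -0.00. These included Elavl4, an RNA-binding protein of neurons (21.0-fold and 8.04-fold), and Syt7, a calcium sensor of secretion (55.2-fold and 32.8-fold). Of 23 and 25 microtubule-associated and stathmin genes, 5 and 6 were higher and 0 lower (median 0.56 and 0.39), among them Map1a (15.2-fold and 12.9-fold), a relative of Map1b, and Mapre3, a plus-end binding protein (11.8-fold and 5.35-fold). Of 14 and 17 growth cone genes, 4 and 7 were higher and 1 and 1 lower, with medians of 0.50 and 0.67. Dpysl5, of the collapsin response mediator family, was 23.4-fold and 33.2-fold higher, Dbn1, which encodes the actin-binding drebrin, was 3.61-fold and 4.89-fold higher, and Gpm6b was 0.253-fold and 0.178-fold. Gap43, the classic growth cone protein, was at 3.54 and 1.75 CPM in Neurog3-high cells against 1379 and 1524 CPM in neural cells.

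Of the other tubulins, 9 and 12 could be compared, and few were called in either direction: 1 and 1 were higher than in the trunk (Tuba4a) and 2 and 2 lower (Tuba1b in both, with Tubb4b in the knockout-labelled and Tubb5 in the control library), with median log2 folds of -0.81 and -0.34. At the Chga-positive state, Tuba1a, an alpha-tubulin of postmitotic neurons, was 3.83-fold and 4.13-fold higher than in Neurog3-high cells, and Tubb2a 2.89-fold and 2.34-fold. Of 8 and 9 intermediate filament genes, 3 and 3 were higher and 1 and 1 lower in Neurog3-high than in trunk cells. The higher ones were epithelial and nuclear, Krt7 (4.12-fold and 3.07-fold), Krt19 and Lmna. Krt7 and Krt19 are also among the trunk markers that helped to set the trunk gate, so their folds are not independent of it. Neither Ina nor Prph, neuronal intermediate filaments, had a UMI in Neurog3-high cells. Endocrine progenitor factors were higher for 14 of 16 and 17 of 20 genes tested (median 3.77 and 2.87), although Neurog3 on this list set the gate. Rest, on the same list, was lower at 0.249-fold and 0.332-fold, with 92.4 and 84.0 CPM in trunk cells, 72.8 and 88.6 in Neurog3-low, 23.0 and 27.9 in Neurog3-high and 6.39 and 1.43 in Chga-positive cells (1 UMI in each library).

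G2/M genes fell along the same states, 13 and 10 of 24 being lower in Neurog3-high than in trunk cells (median log2 fold -1.18 and -0.93), and 10 of 10 and 23 of 23 lower in Chga-positive than in Neurog3-high cells, where 6.87% and 8.1%, and then 7.1% and 9.52%, of all genes were called lower. Between the libraries, 17 of 24 were lower in the knockout-labelled trunk, 17 of 24 in Neurog3-low and 12 of 24 in Neurog3-high cells, with median log2 folds of -0.71, -0.96 and -0.96. Of all genes 3.23%, 3.8% and 3.11% were called lower there. Stmn1 and Tubb2b, the members highest in G2/M-rich cells, were not called between the libraries in any of these 3 states. The part of cell cycle in the differences between libraries was not tested.

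Genes whose levels ran most like the members were ranked over 12 sums (6 gates in each of 2 libraries, which share their libraries and are no independent points). With the mean profile of the 8 members, the highest Pearson r of log2(CPM + 5) among 3797 genes belonged to Cfl1, the actin-severing cofilin (0.98), Actb (0.96) and Ftl1 (0.95), followed by Scoc, Nras, Cacng4, Dusp26 and Pcp4 (0.93 for the last). Map1b ran closest to Kif1a, a kinesin of axonal transport (0.95), followed by Serinc1 and Krit1. Tubb3 ran closest to Smpd3, Grina and Shfm1, Nefm to Cdc42, Map1a and Cacfd1, and Nefl to Basp1, Cxx1a and Gng2. Stmn3 ran closest to Crmp1 (1.00), Kif5c and Tagln3, and Stmn2 to Ednrb, Socs2 and Dpysl3. Tubb2b ran closest to Sox10, Bub3 and Vdac1, and Stmn1 to Acot7, Csrp1 and S100a10. The match with Sox10 rests mainly on the neural sums (54.8 and 88.2 CPM), since Sox10 was at 0 to 5.24 CPM in the others. So do the matches of Stmn3, since Crmp1, Kif5c and Tagln3 were at most 6.39 CPM in the others. Ednrb was at 189 and 215 CPM in the neural sums and 16.4 and 15.5 CPM in mesenchyme. Between members, r was 0.82 for Tubb3 with Map1b, 0.86 for Map1b with Nefm, 0.86 for Tubb2b with Stmn1 and 0.87 for Stmn2 with Stmn3, but -0.08 for Stmn1 with Map1b. The r of 0.87 likewise leans on the neural sums, since Stmn3 was at most 6.39 CPM in the others.

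The authors' deposited table of cluster markers lists 6 of the 8 members over its 7 clusters, without Stmn2 and Stmn3. In the authors' deposited table, the cluster with the Neurog3 marker (cluster 4) has Tubb3 at an average natural-log fold of 1.36 (in 73.7% of its cells), Map1b at 1.54 (88.8%) and Nefm at 0.848 (24.6%). The authors' deposited table gives the Chga and Chgb cluster (cluster 1) Map1b at 1.48 (100%), Nefm at 1.14 (42%), Nefl at 0.361 (17%) and Stmn1 at -1.21 (50%). Tubb2b is a marker of cluster 2 in the authors' deposited table, at 0.383 (81.9%). Spp1 and Sox9 have positive folds there in clusters 2, 5 and 7, and Tubb2b is not listed for clusters 5 and 7.

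Position and shared sequence bear on how the counts can be read. On GRCm38 with GENCODE annotation, Tubb3 (chr8, 123411424 to 123422015, plus strand) is overlapped on its own strand by Gm20388, which had 0 UMIs in both libraries. Within the last 500 bases, from which 3' tags come, Stmn1 alone shared at least 50 bases at 98% identity with another gene, 60 bases with Gm11223, so its UMIs are uncertain to that extent. The closest match of the Tubb3 end was 141 bases at 87.9% identity with Tubb4b-ps1, and none was found for the other 6. Map1b lies at chr13, 99421446 to 99516540 (minus strand), and Tubb2b on the same chromosome at 34126748 to 34130466 (minus strand). Stmn1 lies at chr4, 134468320 to 134473843, Stmn2 at chr3, 8509360 to 8561606, both on the plus strand, and Stmn3 at chr2, 181306459 to 181314500, on the minus strand.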

How the data were processed

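The count matrices deposited by the authors hold whole-number UMI counts per gene and barcode for 1 knockout-titled and 1 control pancreas, and the submitters' processing notes name Cell Ranger, Seurat 2 and 3 and the build GRCm38. The notes read here state no aligner, annotation or strand setting. The authors' deposited table gives average log fold (natural log) and the fraction of cells per cluster, per the file headers. It also holds p-values that the authors computed over cells, per the file headers, which were not used.

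Barcodes with under 500 genes, under 1000 UMIs or over 10% mitochondrial UMIs were removed (32 and 29), and the highest doublet scores (0.8% per 1000 barcodes, 74 and 122 cells) were removed. Epithelial cells had at least 4 of 8 markers and at most 5 mesenchymal UMIs. Neuron-like cells had at least 3 neuron markers and glia-like cells at least 2 glial markers, members excluded. UMIs were summed per gate and library. Folds use the exact conditional binomial interval and shares the Clopper-Pearson interval at 95%. A count of 0 was given a floor of 3 UMIs per gate and library. All 8 members are named, with list genes and the genes of highest r (8 for the mean, 3 per member, at least 50 CPM in 1 gate of each library). Members and lists were chosen with earlier results of these data known. Some genes of the marker and pathway lists are not reported here. The arithmetic was tested on simulated data. Alternatives covered cell filter, doublets, gates, scaling, thinning, UMI minimum, pseudocount, background subtraction and, chosen after seeing the data, leaving out the cell with the most UMIs. Python 3.11.15, numpy 2.4.6, scipy 1.17.1 and pandas 2.3.3 were used.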

Additional observations from a re-analysis of the deposited data

Results flagged for a closer look

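Nefm differed between the libraries in opposite directions in neighbouring states: it was 2.75-fold higher in the knockout-labelled library in Neurog3-high cells (156 UMIs in 14 of 51 cells, against 115 in 22 of 124 control cells) and 0.172-fold in Chga-positive cells (9 UMIs in 4 of 20 cells, against 233 in 30 of 84 control cells). The difference between the 2 folds was not tested, since each group is 1 library. One knockout-labelled cell holds 74 of the 156 UMIs. Control Chga-positive cells with at least 10 Gcg UMIs, the transcript of glucagon (15 cells), had 565 CPM of Nefm and the other 69 had 267 CPM. In the knockout-labelled library the same split gave 51.5 CPM in 5 cells (2 UMIs) and 59.5 CPM in the other 15 (7 UMIs), both below either control value.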

How the results depend on the processing

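Of 857 fold values under 20 alternative settings, 769 kept their call and lay within the counting interval of the reported fold, and 88 did not. Among called folds, 0 changed direction where the minimum of UMIs was still met. For folds that were not called, a change of direction was not counted. For 3 folds between the libraries (Map1b in the trunk and in Neurog3-low cells, Stmn1 in Chga-positive cells), background subtraction left both libraries at or under the floor of 3 UMIs, and no fold was given. Members called between the libraries numbered 1 in the trunk as reported. That count was 0 with a stricter epithelial gate, with Chga-positive cells set at 1 UMI, with background subtraction and with a minimum of 100 UMIs, and 2 with Chga at 5 UMIs or with gates on thinned cells. In Neurog3-low cells (0) it was 1 with the Neurog3-high gate at 10 UMIs or a minimum of 5 UMIs, and 2 with Chga-positive cells left in. In Neurog3-high cells (1) it was 2 with cells thinned to 3000 UMIs, with background subtraction or without the cell with the most UMIs. In Chga-positive cells (1) it was 2 without doublet removal, with Chga at 1 UMI, with TMM scaling or without the cell with the most UMIs. In mesenchyme (1) it was 2 with gates on thinned cells or background subtraction. Nefm ranged from 1.47 to 3.36-fold in Neurog3-high cells and from 0.121 to 0.439-fold in Chga-positive cells, and Stmn2 in mesenchyme from 1.88 to 2.67-fold. Members higher in Neurog3-high than trunk cells (3 in each library) numbered 2 to 4 in the knockout-labelled and 3 to 4 in the control library. With 20 knockout-labelled Chga-positive cells, sparse genes were not called there even at large differences, such as Tubb2b at 0.379-fold (0.0992 to 1.04). No paired analysis was possible because each group is 1 library.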

Other observations

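In the knockout-labelled library, the 5 Chga-positive cells with at least 10 Gcg UMIs had 0 UMIs of Nefl, 0 of Stmn1 and 669 CPM of Map1b, and the other 15 cells had 42.5 CPM of Nefl (5 UMIs, all in 1 cell), 281 CPM of Stmn1 and 1003 CPM of Map1b. In the control library, the 15 cells with as much Gcg had 114 CPM of Nefl (18 UMIs, 13 of them in 1 cell), 63.5 CPM of Stmn1 and 629 CPM of Map1b, and the other 69 cells had 16.7, 248 and 1010 CPM. The order of Nefl was thus opposite in the 2 libraries, on few UMIs. Within Neurog3-high cells, the 17 knockout-labelled and 40 control cells with only 4 or 5 of the 8 epithelial markers had 351 and 465 CPM of Tubb3, against 102 and 137 CPM in the 34 and 84 cells with 6 or more, and 667 and 673 CPM of Map1b against 142 and 235 CPM. Stmn1 was at 695 and 706 CPM in the cells with fewer markers and at 705 and 866 CPM in those with more. The cells with fewer markers also had more Neurog3, at 3845 and 5058 CPM against 2179 and 2872 CPM. Neurod1 was at 358 and 250 CPM against 87.5 and 77.5 CPM. Median depth was 8886 and 7776.5 UMIs against 11102.5 and 9130 UMIs. What underlies the split was not tested.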
